A study of Homo sapiens with 8 samples.

Results

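The response of HCC827 cells to gefitinib on a 3D collagen scaffold is described here from 2 of the 8 arrays of the series, the gefitinib array and the control array of this line in 3D. The rule took the log2 difference between these arrays for 11926 genes that passed a filter on low signal, out of 18244 genes measured, and kept those that differed by at least 2-fold, a log2 difference of 1 or more either way. By this rule 95 genes rose and 375 fell. HCC827 is an established human lung adenocarcinoma line with an activating EGFR mutation, and A549 is an established human lung cancer line that the labels give as having none. Both lines were grown on the scaffold for 14 days from 100000 seeded cells, and gefitinib was present at 1 µM from day 11 for the last 3 days in the treated cultures, while controls received no inhibitor. The series also holds both lines in conventional 2D dishes, cultured for 7 days from 200000 cells, with 1 µM gefitinib or none. The labels do not clearly give when gefitinib was added in 2D, so the cultures differ in length, seeding and possibly exposure. Each combination of line, culture and treatment is 1 array of 1 sample, so no value below has a replicate error and no test across replicates was possible. The labels do not say whether cells were pooled from several scaffolds.

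The only measure of scatter on the scaffold came from the A549 3D pair, the same treatment in a line without the activating mutation. Its difference holds that line's own response as well as technical scatter, so it is a yardstick and not an error. Across the 11926 genes its SD was 0.17 log2 units, against 0.42 in HCC827. In A549 99% of genes lay within 0.48 of 0, whereas in HCC827 the same share lay within 1.58.

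The epidermal growth factor receptor EGFR is a receptor tyrosine kinase whose activating mutations keep its kinase on without ligand. It drives the RAS, RAF, MEK and ERK kinase cascade, which induces immediate-early transcription factors, cyclin D1 and its own phosphatases, and the PI3K and AKT branch, which holds FOXO factors out of the nucleus and promotes glucose use. Gefitinib occupies the ATP pocket of the kinase. Lung adenocarcinoma lines with such mutations are known for depending on the receptor for growth.

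The HCC827 2D arrays stood against their labels. ERK feedback and proliferation genes were higher, not lower, in the array labelled as gefitinib, so 2D values are given only as labelled, and no 3D difference uses them. They enter the choice of probe set and the filter, and with both made on the 4 arrays of the 3D cultures alone, 102 genes rose and 377 fell.

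The 2 HCC827 3D arrays carried the profile of lung epithelial cells. All 9 lung epithelial markers, keratins, EPCAM, CDH1, NKX2-1, SFTA2 and NAPSA, stood above the array median on both arrays, at 12.2 to 14.0 in the control and 11.5 to 14.3 with gefitinib. Of 12 fibroblast markers 2 were above the median on each array, of 10 endothelial markers 3 and 2, of 10 leukocyte markers on the array 3 and 2, and of 14 ciliated cell markers 3 and 4. PTPRC (6.002 and 6.108), CDH5 (6.60 and 6.72), COL1A2 (6.63 and 6.64) and COL3A1 (5.95 and 6.15), picked outside the rule for named genes, lay below the median on both. Other members did not. The endothelial marker KDR stood above it on both arrays (7.99 and 7.45), and EGFL7 (7.54 and 7.04) in the control only. The fibroblast marker LUM (lumican), a collagen-binding proteoglycan, went from 6.28 to 7.37, just above the median of the gefitinib array, and was the only rise past 2-fold among the 3 fibroblast markers that passed the filter. The summed linear signal of the lung epithelial list was 79610 in the control and 61460 with gefitinib, and that of the ciliated list 8558 and 5141. For the fibroblast list it was 1279 and 1344, and for the leukocyte list 2293 and 1532. CD68, a lysosomal protein on the leukocyte list, made most of that drop, from 10.16 to 8.71. On these bulk arrays fewer cells of a type and less RNA per cell cannot be told apart.

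RNA integrity also differed within the pair. The 3' minus 5' signal of the actin control probe sets, which grows as RNA breaks down, was 2.34 in the control and 2.64 with gefitinib, and that of GAPDH was 0.97 and 1.57. In the A549 3D pair the same values were 1.67 and 1.74, and 0.55 and 0.54. The part of this difference in the results below was not tested. Background control probe sets moved little, from 6.63 to 6.77.

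The response leaned to loss of signal. In HCC827 64.9% of all genes were below 0, against 41.2% in A549. Of the genes tested, 0.797% rose and 3.14% fell in HCC827, against 0.00839% (1 gene, NEO1 at 1.36) and 0% in A549. A list below with few or no 2-fold changes is therefore near the shares over all genes. Falls made up 79.8% of the 2-fold changes, a share of 74.5% with the arrays set to a common median and 61.2% after cyclic loess normalization, which moved the median of all genes from -0.11 to 0.05. At 4-fold or more, 5 genes rose and 33 fell. Genes that fell had a median control signal of 9.78, genes that rose 8.25, and all genes 8.82. The control value enters the difference that selects the genes, so a contrast in this direction is partly built in by the rule. In the control array 15 of the 95 rising genes lay below the array median, and 55 of the 375 falling genes lay below it with gefitinib.

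**Figure D1:**
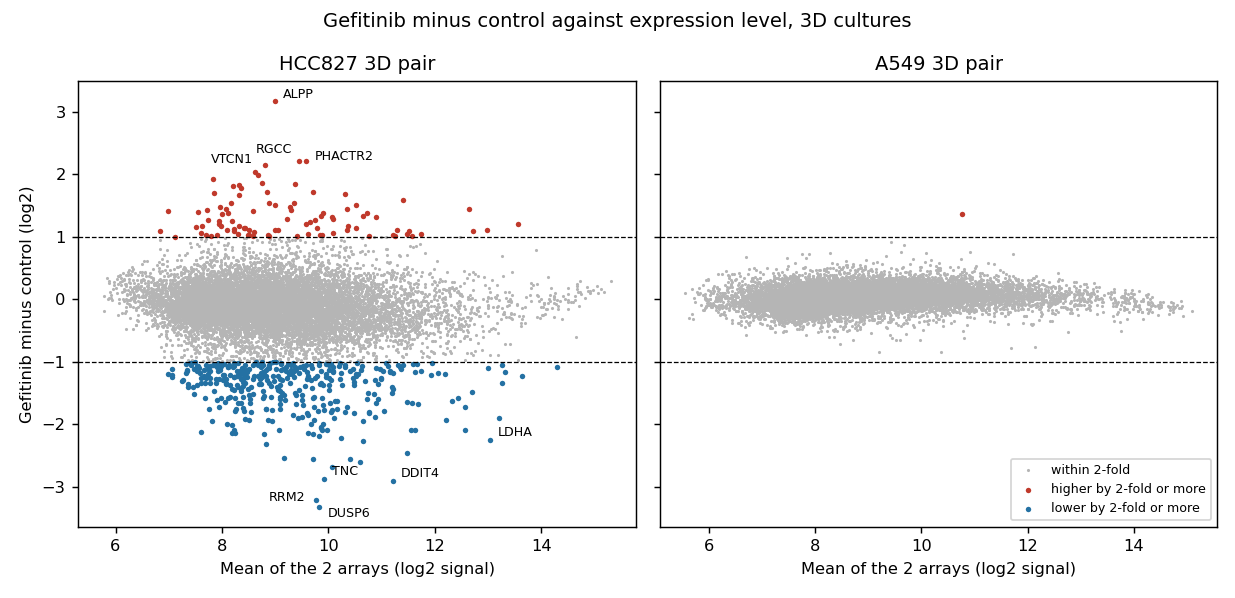
Gefitinib minus control (log2, y axis) against the mean signal of the pair (log2, x axis) for 11926 genes in the HCC827 3D pair (left) and the A549 3D pair (right), 1 point per gene, with dashed lines at 2-fold. HCC827 has 95 points above and 375 below the lines, from DUSP6 at -3.32 to ALPP at 3.17, whereas A549 has 1 point outside them.

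Within the level decile of each gene, 89 of the 95 rises and 356 of the 375 falls were larger than any A549 3D difference in that decile. In every decile but that of NEO1 the largest A549 difference was 0.92 or less, so each 2-fold gene there passed through the rule alone. The count therefore adds no support to the calls. The rule's limit cut through a continuous range, with FANCI at -1.002 inside and ACO1 at -0.9955 outside, and DOCK11 at 1.0026 inside and ST6GAL1 at 0.9997 outside. Other probe sets of the same gene, not used to choose it, mostly moved the same way. For falling genes 479 of 489 passing probe sets (98.0%) had the same sign and 206 were themselves past 2-fold. For rising genes these counts were 109 of 114 (95.6%) and 53. With the mean of all probe sets of a gene in place of the brightest, 55 genes rose and 242 fell.

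The ERK feedback genes, which the pathway induces, leaned lower with gefitinib. ERK activity itself was not measured on these arrays. Of 11 measured phosphatases, Sprouty and Spred proteins, 5 fell and 0 rose, with a median of -0.74, against -0.11 over all genes. DUSP6, the cytoplasmic phosphatase that dephosphorylates ERK, showed the largest fall of all genes, from 11.48 in the HCC827 control to 8.16 with gefitinib, a 9.96-fold difference (log2 -3.32). In A549 it stood at 9.81 and 9.75. The treated HCC827 array thus lay below both A549 arrays, and its control above them. All 4 DUSP6 probe sets lay between -3.32 and -2.25.

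The other falls of this list were smaller. SPRED2, an inhibitor of RAF activation, fell by 1.45 on the log2 scale and SPRED1 by 1.15. DUSP5, the nuclear ERK phosphatase, went from 8.72 to 7.43, and DUSP4 from 8.53 to 7.26. In the A549 pair none of the 11 genes moved by more than 0.18. The other named members did not pass 2-fold: SPRY4 stood at -0.74, SPRY1 at -0.60, SPRY2 at 0.10 and DUSP1 at 0.35, the last 3 named after their values were seen. The median of this list was -0.53 when probe sets were chosen on the 3D arrays alone.

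Of 23 measured ERK-driven transcription factors and early-response genes, 11 fell and 0 rose, with a median of -0.81 (0.05 in A549). EGR1, the zinc finger immediate-early factor, went from 11.78 to 9.51 in HCC827, while the A549 arrays stood at 8.51 and 8.45. FOS, the AP-1 subunit, fell by 1.68, and the ETS factors ETV5 and ETV4 fell by 1.79 and 1.57. CCND1, the cyclin that starts G1 progression, went from 10.80 to 9.03, and in A549 from 10.99 to 11.22. PHLDA1 and IER3, early-response genes, fell by 1.57 and 1.31. MYC stood at -0.65, within 2-fold, on its only probe set.

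The EGR1 promoter is shown because it is the only promoter among the 16 of this list with a promoter sequence that holds a serum response element, the site where ERK-activated ETS cofactors meet SRF. The window runs from 250 bases before to 50 after the start site in RefSeq (GRCh38.p14), at chr5:138465229-138465528, plus strand, and capitals mark the element at -105 and -83 from the start site. Of all 27305 promoters of this length 0.0879% hold one of the 3 forms searched on either strand. These letters are a match in a sequence and were not tested for binding.
EGR1: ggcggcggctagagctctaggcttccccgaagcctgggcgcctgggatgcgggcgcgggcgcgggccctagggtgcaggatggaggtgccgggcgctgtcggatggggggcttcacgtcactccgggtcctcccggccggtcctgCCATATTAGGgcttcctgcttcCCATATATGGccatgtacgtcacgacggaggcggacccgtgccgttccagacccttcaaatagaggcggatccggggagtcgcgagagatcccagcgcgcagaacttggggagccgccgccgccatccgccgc

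**Figure D2:**
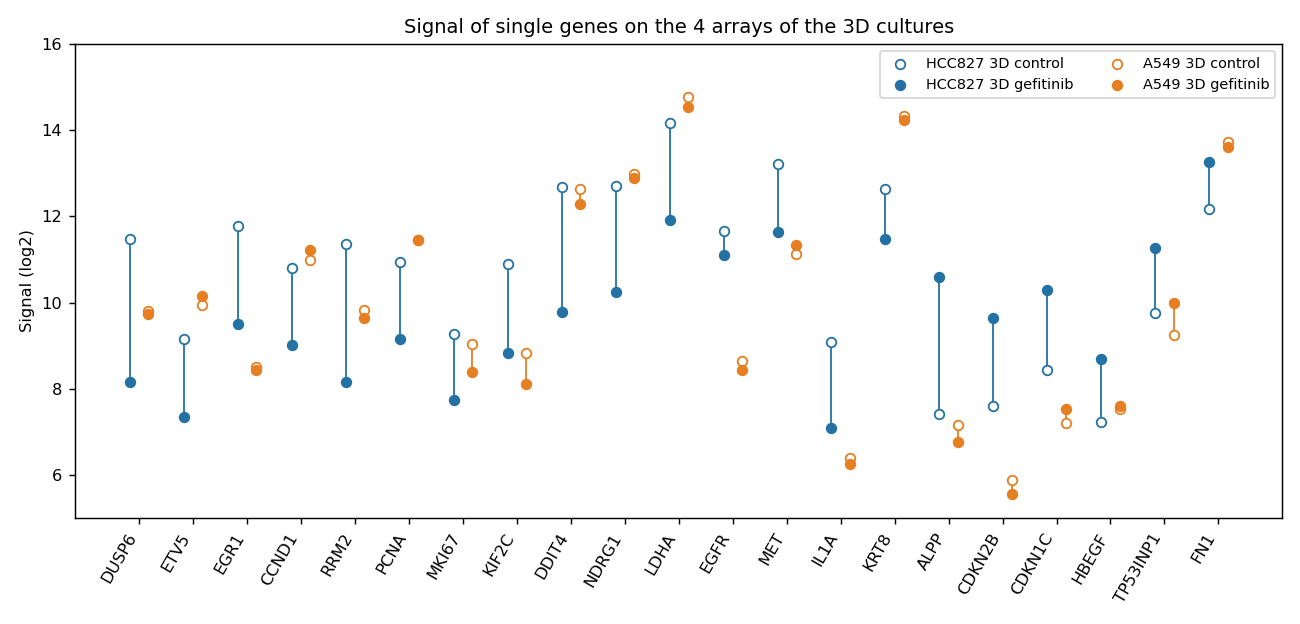
Signal (log2, y axis) of 21 genes (x axis) on the 4 arrays of the 3D cultures, HCC827 in blue and A549 in orange, with open circles for control, filled circles for gefitinib and a line joining each pair. DUSP6 drops from 11.48 to 8.16 in HCC827 and stays at 9.81 and 9.75 in A549, and ALPP goes from 7.42 to 10.59 in HCC827.

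The receptors themselves changed little. Of 12 ERBB receptors and inhibitors, 1 fell and 0 rose, with a median of 0.01. EGFR stood at 11.66 and 11.12 in HCC827 (log2 -0.55) and at 8.66 and 8.43 in A549 (-0.22), so both HCC827 arrays lay above both A549 arrays. ERBB2 and ERBB3, its dimerization partners, stood at 0.14 and 0.04. ERRFI1, which encodes the feedback inhibitor MIG6 that binds the receptor's kinase domain, went from 12.30 to 10.66.

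Among 6 measured EGFR family ligands 2 fell and 1 rose. EREG (epiregulin) fell by 1.47 and TGFA by 1.08. HBEGF, the heparin-binding ligand, went from 7.22 to 8.70, while A549 stood at 7.54 and 7.61. Its other probe set, which did not pass the filter, stood at 0.41. The ligands therefore did not move as a group, and their median was 0.13.

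Of 19 other receptor tyrosine kinases and adaptors, 1 rose and 1 fell, with a median of 0.03. MET, the hepatocyte growth factor receptor, went from 13.22 to 11.64 in HCC827 and from 11.13 to 11.34 in A549. The treated HCC827 array lay above both A549 arrays. GAS6, the ligand of AXL, rose from 7.56 to 8.82. AXL itself, a receptor associated with gefitinib resistance and named after its value was seen, stood at 6.61 and 6.64, below the array median on both arrays.

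The cell cycle genes formed the broadest group of falls. Among 13 D cyclins, G1 kinases and inhibitors, 2 fell and 2 rose. CCND1 is described above, and CCNE2, the cyclin of S-phase entry, fell by 1.34. Both rises were inhibitors of cyclin-dependent kinases. CDKN2B, which encodes p15 and inhibits CDK4 and CDK6, went from 7.59 to 9.63, and A549 stood at 5.87 and 5.55. CDKN1C, which encodes p57, went from 8.44 to 10.29, and A549 stood at 7.21 and 7.54. The 4 CDKN1C probe sets lay between 1.601 and 1.842, whereas the 3 CDKN2B probe sets lay between 0.29 and 2.04. CDKN1B, the p27 gene regulated by FOXO, stood at 0.15, and CDKN1A, named after its value was seen, at -0.67.

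Every one of the 48 measured DNA replication genes was below 0 in the HCC827 3D pair, 25 of them by 2-fold or more, with a median of -1.03, against -0.09 in A549. RRM2, the regulated subunit of ribonucleotide reductase, went from 11.37 to 8.16, a 9.23-fold difference and the second-largest fall. In A549 it stood at 9.83 and 9.64. CDC6 and MCM4, which license and unwind origins, fell by 2.32 and 2.15. TYMS, TK1 and PCNA supply thymidine nucleotides and clamp the polymerase, and they fell by 2.15, 2.09 and 1.80. DTL, a ubiquitin ligase adaptor that acts on PCNA-bound proteins, fell by 2.13.

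The subunits of the replicative helicase differed in value. Named after their values were seen, MCM4 stood at -2.15, MCM3 at -1.26 and MCM2 at -1.02, while MCM6 stood at -0.94, MCM5 at -0.60 and MCM7 at -0.47. The 5 probe sets of MCM4 ran from -2.15 to -0.15, a spread as wide as that between the subunits. The second probe sets of RRM2 and PCNA stood at -2.15 and -0.19, the latter below the filter, so the PCNA fall rests on 1 probe set.

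All 49 measured mitosis genes were also below 0, 38 of them by 2-fold or more, with a median of -1.24. DLGAP5 and KIF2C, which act on spindle microtubules, went from 9.27 to 7.18 and from 10.90 to 8.84. MAD2L1, the spindle checkpoint protein, went from 9.20 to 7.18. NCAPG, a condensin subunit, ANLN, the cytokinesis scaffold, and UBE2C, the ubiquitin-conjugating enzyme of the anaphase-promoting complex, fell by 1.92, 1.85 and 1.82. MKI67, the proliferation marker, went from 9.28 to 7.74.

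Mitosis genes were the list where A549 moved most in the same direction, with a median of -0.31 and a range of -0.85 to 0.10. KIF2C stood at -0.71 and MKI67 at -0.65 in A549, and TOP2A, the topoisomerase of chromosome separation, at -0.85, the lowest of all genes there (-1.66 in HCC827). None of these A549 values reached 2-fold. With the A549 difference subtracted, the HCC827 median of the list was -0.91.

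Promoter sequences of these groups differed in ways the rule did not use. Promoters from RefSeq (GRCh38.p14) were matched for 9807 of the 11926 genes. The cell-cycle homology region or CHR, searched as TTTGAA or TTCGAA on both strands, occurred in 31 of 41 mitosis promoters (75.6%), against 11.2% of genes that passed the filter and 16.6% of all promoters. The CCAAT box, searched on both strands, occurred in 73.2% of mitosis promoters, against 36.4% of genes that passed. E2F sites, searched as TTTGGCGC, TTTCGCGC, TTTCCCGC, TTTGCCGC or TTTGGCGG on both strands, occurred in 25 of 42 replication promoters (59.5%), against 6.28% of genes that passed and 3.95% of all promoters. Over all falling genes the shares were 24.8% for the CHR and 10.9% for E2F sites, and over rising genes 12.3% and 1.37%. The lists were drawn up by function and hold known targets of these factors. Not every motif searched was more frequent among falling genes. The ETS site, searched as CCGGAAGT on both strands, occurred in 2.72% of falling and 0% of rising promoters, against 8.58% of genes that passed. It was in 0 of 9 ERK feedback promoters and 0 of 16 promoters of ERK-driven factors. Further motifs were searched and are not all given here.

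For the E2F site and the CHR the promoter with the largest fall among list members that hold it is shown, as examples of how the sites sit around the start site. RRM2 has no match in this window, which says only that those letters are not in it. CDC6 lies at chr17:40287629-40287928 on the plus strand, with E2F sites at -28 and 8, and DLGAP5 at chr14:55191536-55191835 on the minus strand, with CHR matches at -138, -109 and 4. Capitals mark these matches, and both sequences read 5' to 3' along the gene.
CDC6: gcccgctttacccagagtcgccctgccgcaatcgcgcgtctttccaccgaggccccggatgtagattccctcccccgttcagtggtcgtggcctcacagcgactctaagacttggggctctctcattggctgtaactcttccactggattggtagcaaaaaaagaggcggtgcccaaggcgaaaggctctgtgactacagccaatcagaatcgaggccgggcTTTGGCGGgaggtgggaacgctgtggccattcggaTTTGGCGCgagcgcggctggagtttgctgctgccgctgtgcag
DLGAP5: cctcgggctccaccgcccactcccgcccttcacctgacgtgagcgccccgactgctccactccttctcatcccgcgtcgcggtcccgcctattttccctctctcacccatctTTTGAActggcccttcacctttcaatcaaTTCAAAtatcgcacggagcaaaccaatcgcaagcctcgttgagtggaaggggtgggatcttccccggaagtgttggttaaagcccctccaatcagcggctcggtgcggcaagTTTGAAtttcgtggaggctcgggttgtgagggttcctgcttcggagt

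The steepest shift of any list was in hypoxia response and glycolysis genes. All 36 measured members were below 0, 27 of them by 2-fold or more (75.0%), with a median of -1.62 and an A549 median of -0.18. Hypoxia-inducible factor turns these genes on when oxygen is short, and PI3K and MYC signalling also feed the glycolytic ones. DDIT4, the stress-induced inhibitor of mTOR complex 1, went from 12.67 to 9.77, a 7.46-fold difference. A549 stood at 12.64 and 12.29, so the controls of both lines were alike and only the treated HCC827 array was low.

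Oxygen-sensing and stress genes and the glycolytic enzymes fell side by side. EGLN3, the prolyl hydroxylase that marks hypoxia-inducible factor for destruction, fell by 2.56, and its 3 probe sets ranged from -2.57 to -0.26, the last below the filter. NDRG1, a hypoxia- and stress-induced gene, went from 12.71 to 10.26. P4HA1, the collagen prolyl 4-hydroxylase, fell by 2.19. LDHA, the lactate dehydrogenase subunit that regenerates NAD, went from 14.17 to 11.92 in HCC827 and from 14.77 to 14.54 in A549. All 4 of its probe sets lay between -2.36 and -2.19. PFKFB4, which makes the activator of phosphofructokinase, fell by 2.22.

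Along the glycolytic path, described after its values were seen, the falls ran from uptake to pyruvate. The glucose transporter SLC2A1 fell by 1.68 and hexokinase HK2 by 1.67. The isomerase GPI fell by 1.49, aldolase ALDOA by 1.89 and TPI1 by 1.33. PGK1, PGAM1, ENO1 and the pyruvate kinase PKM fell by 2.09, 1.48, 1.73 and 1.58. PDK1, a kinase that inhibits pyruvate dehydrogenase, fell by 2.13. GAPDH, the enzyme between triose and phosphoglycerate, stood at -0.61 and did not pass 2-fold. VEGFA, the angiogenic factor of the same response, stood at -0.71. Each of these 12 genes lay between -0.26 and -0.10 in A549, so the A549 differences had the same sign at a small size.

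The hypoxia response core, searched as TACGTG or GACGTG on both strands, sat in 13 of 26 promoters of falling list members (50.0%), in 0 of the 8 others with a promoter and in 13.4% of genes that passed the filter. Over all falling genes the share was 19.7%, and over rising genes 12.3%. In the cytosolic and mitochondrial ribosomal protein lists it was 29.7% and 5.26%. The hypoxia list was drawn up by function, and its members were split by the difference that the rule used. The core shares ACGTG with the E-box CACGTG, which occurred in 14.7% of the list and 10.03% of genes that passed. DDIT4 is shown as the member with the largest fall that holds it, at chr10:72273674-72273973 on the plus strand, with the match at -126 in capitals. LDHA holds one at -73.
DDIT4: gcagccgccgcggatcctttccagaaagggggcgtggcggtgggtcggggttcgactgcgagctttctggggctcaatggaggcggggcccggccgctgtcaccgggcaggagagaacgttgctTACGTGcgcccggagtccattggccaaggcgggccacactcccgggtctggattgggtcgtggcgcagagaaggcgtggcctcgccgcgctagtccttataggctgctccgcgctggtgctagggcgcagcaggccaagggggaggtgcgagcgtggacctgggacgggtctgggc

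**Figure D3:**
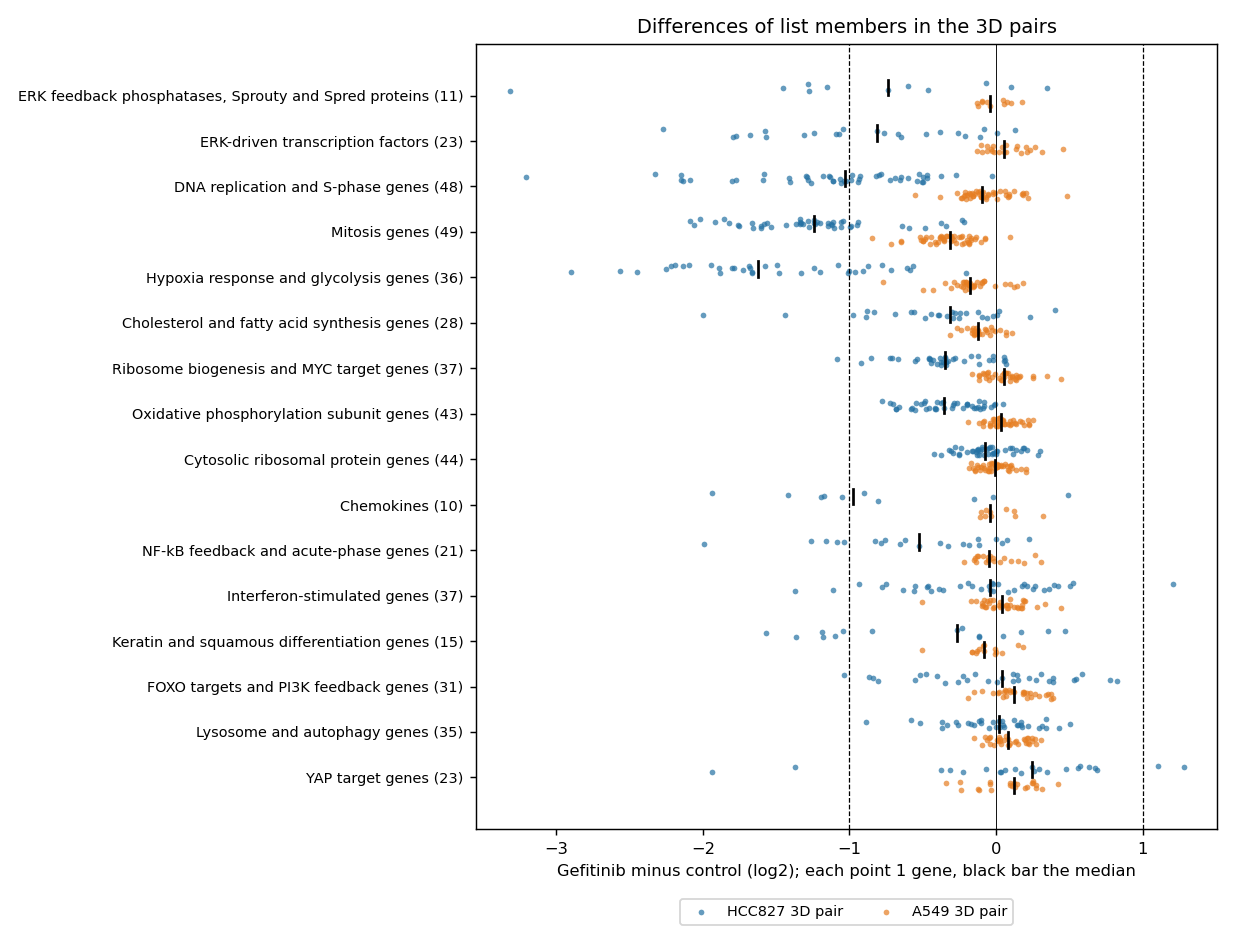
Gefitinib minus control (log2, x axis) of the members of 16 gene lists (y axis, measured members in brackets) in the HCC827 3D pair (blue) and the A549 3D pair (orange), 1 point per gene, with the median as a black bar and dashed lines at 2-fold. The hypoxia and glycolysis list has its HCC827 median at -1.62 and its A549 median at -0.18, and the cytosolic ribosomal protein list has its HCC827 median at -0.07.

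Biosynthetic and mitochondrial genes shifted less. Of 28 cholesterol and fatty acid synthesis genes 2 fell, the desaturase SCD by 2.00 and the elongase ELOVL6 by 1.44. The other 3 SCD probe sets, all past the filter, stood at -0.48, -0.75 and -0.32. The list median was -0.31, or -0.09 after cyclic loess. None of 43 oxidative phosphorylation subunits passed 2-fold. Of these 42 were below 0, against 64.9% of all genes, with a median of -0.35 and a range of -0.78 to 0.05. For 42 mitochondrial ribosomal proteins the median was -0.33, and for 44 cytosolic ones -0.07, again with none past 2-fold. Of 37 ribosome biogenesis and MYC target genes only FBL, the rRNA methyltransferase fibrillarin, fell (-1.09), with a list median of -0.35. Over all genes in the brightest of 10 level classes the median was -0.24.

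Few stress genes passed 2-fold, as did few of all genes (0.797% rose and 3.14% fell). The low counts are therefore not particular to stress genes. Of 24 NRF2 and pentose phosphate genes AKR1C1 alone changed, a rise of 1.02. Of the 24, 19 were below 0, against 64.9% of all genes. The list median was -0.32, against -0.11 over all genes. The ATF4 list median was -0.24, and of 30 amino-acid stress genes targeted by ATF4 the changes were DDIT4 and STC2 (-1.38). None of 20 endoplasmic reticulum chaperones and none of 35 lysosome and autophagy genes passed 2-fold, with medians of -0.28 and 0.02.

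FOXO targets did not shift as a group. Of 31 measured targets and PI3K feedback genes 1 fell (3.23%, against 3.14% of all genes) and 0 rose (against 0.797%). The list median was 0.04 (0.12 in A549). That median was 0.28 after cyclic loess and -0.17 with the A549 difference subtracted, so its sign depends on the processing. IRS2, the insulin receptor substrate, stood at 0.31 in HCC827 and 0.26 in A549, and CDKN1B at 0.15. The single fall was SOD2 (-1.04), the mitochondrial superoxide dismutase, which is also an NF-kB target.

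BCL2L11, the gene of the BH3-only protein BIM, stood at 8.82 and 8.97 (0.15), with its 14 probe sets between -0.21 and 0.37. Of 18 measured BCL2 family genes 4 fell (22.2%, against 3.14% of all genes) and 0 rose, with a median of -0.19. BNIP3 and BNIP3L, mitophagy receptors induced by hypoxia, fell by 1.88 and 1.09. The second BNIP3 probe set, below the filter, stood at 0.15. BCL2A1, an antiapoptotic member, fell by 1.20, and PMAIP1, the gene of NOXA, by 1.04. Of 23 p53 targets PMAIP1 was the only fall, and TP53INP1, an autophagy and stress protein, the only rise, from 9.77 to 11.27. It was one of the 5 largest rises in A549 as well, from 9.24 to 9.99 (0.75), but its second probe set, below the filter, stood at -0.12 in HCC827.

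Inflammatory genes were lower. Of 10 measured chemokines 5 fell and 0 rose, with a median of -0.98. CCL20, which attracts CCR6-bearing lymphocytes, went from 9.84 to 7.90, while A549 stood at 6.62 and 6.55. CXCL8 (interleukin-8) went from 10.41 to 8.99 in HCC827, and A549 stood at 10.16 and 10.22. CX3CL1, CXCL6 and CXCL2 fell by 1.19, 1.17 and 1.05. The second CX3CL1 probe set, past the filter, stood at -0.45.

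Of 21 NF-kB feedback and acute-phase genes 5 fell and 0 rose. IL1A, an alarm cytokine, went from 9.09 to 7.09. SAA1, an acute-phase protein, and ICAM1, the leukocyte adhesion receptor, fell by 1.26 and 1.16, and LCN2, the iron-siderophore binding lipocalin, by 1.09. Interferon-stimulated genes did not follow. Of 37 measured, 2 fell (5.41%, against 3.14% of all genes), IFITM1 by 1.37 and OAS3 by 1.11. TRIM22 rose by 1.21 (2.70% of the list, against 0.797%), and the list median was -0.04. The TRIM22 rise rests on its probe set, since the one chosen on the 3D arrays alone stood at -0.03. None of 21 antigen presentation genes passed 2-fold, and of 13 complement genes CLU, the chaperone clusterin, rose from 7.99 to 9.71, with its second probe set, below the filter, at 0.13.

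Of 20 lung lineage genes 2 fell and 1 rose. NKX2-1, the lung lineage factor, stood at 12.23 and 12.12, and CDH1 (E-cadherin) at 12.78 and 12.58. The falls were SFTPA2, a surfactant protein, by 1.72, and ETV5, given above, and HOPX, a homeodomain protein of alveolar type 1 cells, rose from 8.12 to 9.66. All 3 HOPX probe sets lay between 1.53 and 2.02.

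Of 24 airway secretory genes 7 fell and 2 rose. MUC5B, a gel-forming mucin, CP (ceruloplasmin) and AGR2, the disulphide isomerase that folds mucins, fell by 1.77, 1.53 and 1.30, and SPDEF, a goblet cell factor, by 1.09. ALDH1A3, a retinaldehyde dehydrogenase, rose from 10.60 to 12.20, and CEACAM6, a surface glycoprotein, rose by 1.11. Of 15 keratin and squamous genes 6 fell. The simple epithelial keratins KRT8, KRT18 and KRT19 fell by 1.18, 1.10 and 1.04, SFN (14-3-3 sigma) by 1.57 and S100A9 by 1.36, whereas KRT7, named after its value was seen, stood at 0.36.

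Markers of a mesenchymal state did not move together. Of 19 measured, FBN1 (fibrillin) and FN1 (fibronectin) rose by 1.14 and 1.10, TGFBI fell by 1.17, and the median was 0.03. VIM (vimentin) stood at -0.36. FN1 went from 12.17 to 13.27, with A549 at 13.73 and 13.62, and its 8 probe sets ranged from 0.24 to 1.12. Of 32 junction genes 2 fell (6.25%, against 3.14% of all genes), OVOL1 and CLDN12, by 1.11 and 1.02. A second probe set of each, past the filter, stood at -0.28 and -0.15. OVOL2, an epithelial repressor of the mesenchymal transition, rose by 1.23.

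Of 15 integrin and laminin subunits 3 fell, the collagen receptor subunit ITGA2 by 1.59, ITGA6 by 1.30 and ITGA5 by 1.15. MMP9, a gelatinase, went from 10.43 to 7.89 and PLAUR, the urokinase receptor, fell by 1.26, the only falls among 23 genes of that list. TNC (tenascin-C), a matrix glycoprotein, went from 11.36 to 8.49, with A549 at 6.29 and 6.20. Of 10 IGF binding proteins 3 fell, IGFBP1 by 1.94, IGFBP3 by 1.93 and IGFBP2 by 1.12. The YAP target list had the highest median of the 47 lists, 0.25 against 0.13 in A549. In it AMOTL2 and RBMS3 were higher by 1.11 and 1.28, and IGFBP3 and NT5E lower by 1.93 and 1.37. Other probe sets of AMOTL2 and RBMS3, past the filter, stood at 0.32 and 0.20. None of 24 actin cytoskeleton genes and none of 22 Wnt and Notch genes passed 2-fold. Few of all genes did (0.797% rose and 3.14% fell), so these counts are not particular to these lists.

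Other large falls lay outside the lists or on lists given above. PCLAF, a PCNA-binding protein, fell by 2.68, HILPDA, a lipid droplet protein induced by hypoxia, by 2.60, and G0S2, an inhibitor of the lipase ATGL, by 2.55. The G0S2 probe sets ranged from -2.55 to 0.26, the highest below the filter. CYP24A1, which degrades vitamin D, fell by 2.12, while the other changes among 18 drug transport and xenobiotic genes were rises, CYP1A1 and the transporter ABCC5 (1.10).

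A few smaller lists complete the picture. Of 10 core histone genes 3 fell, H4C3 by 1.44, H2AZ1 by 1.16 and H2AX by 1.12, with a median of 0.19. Of 15 ID proteins and BMP or TGF-beta feedback genes ID1, an inhibitor of basic helix-loop-helix factors, fell by 1.15 and BMP4, a growth factor, rose by 1.04. None of 14 nuclear-retained RNAs and speckle protein genes passed 2-fold, although all 14 were above 0, with a median of 0.23. Of all genes 64.9% were below 0. Histone, SAA1, SFTPA2, IFITM1 and AKR1C1 probes can also bind close paralogs, so these values are uncertain for the single gene.

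Of the 95 rises 74 were on none of the 47 lists, against 213 of the 375 falls. ALPP, a placental alkaline phosphatase, showed the largest, from 7.42 to 10.59, an 8.98-fold difference, with A549 at 7.16 and 6.77. Its near-identical paralog ALPG stood at 1.55, and probes for such genes can cross-hybridize, so the level of each is uncertain. RGCC, a regulator of CDK1, went from 8.34 to 10.56 on its only probe set. PHACTR2, an actin- and phosphatase-binding protein, went from 8.47 to 10.68, and VTCN1, the immune checkpoint ligand B7-H4, from 7.73 to 9.88.

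CYP1A1, the xenobiotic oxidase induced by the aryl hydrocarbon receptor, rose from 7.69 to 9.67, with A549 at 6.91 and 6.77. BDNF, a neurotrophin, TNNC1, a cardiac troponin, and COL4A3, a basement membrane collagen, rose by 1.83, 1.81 and 1.71. NATD1, BAAT, a bile acid conjugating enzyme, FILIP1L and SYTL4, a granule-docking protein, rose by 1.92, 1.86, 1.78 and 1.72. Their probe sets varied, those of FILIP1L from -0.19 to 1.78 and those of NATD1 from 0.26 to 1.92, and the lowest value of each came from a probe set below the filter. In the aldehyde dehydrogenase and aldo-keto reductase list, 3 of 16 genes rose and 0 fell, ALDH1A3, ALDH3B1 (1.03) and AKR1C1.

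Genes that fell in HCC827 leaned slightly the same way in A549 on the scaffold. Of the 375 falls 272 (72.5%) were below 0 in A549, against 41.2% of all genes, with a median of -0.10. Of the 95 rises 58 (61.1%) were above 0, against 58.8% of all genes. No gene changed by 2-fold in the same direction in both lines, but only NEO1 (0.00839% of genes) passed 2-fold in A549, so hardly any overlap was possible.

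In the HCC827 2D pair as labelled, most of the same genes lay on the other side of 0. In that pair 2.36% of genes were higher by 2-fold (281 genes) and 1.62% lower (193 genes). Of the 375 genes that fell in 3D, 332 (88.5%) were above 0 there, against 41.8% of all genes, and 180 passed 2-fold upwards, or 48.0% of the 3D falls and 64.1% of the 2D rises. Of the 95 that rose in 3D, 84 (88.4%) were below 0 and 26 passed 2-fold downwards, 27.4% of the 3D rises and 13.5% of the 2D falls. DUSP6 stood at 3.64, the highest value of that pair. Across genes, which are not independent replicates, Pearson's r between the pairs was -0.55.

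The chemokine and NF-kB lists had medians below 0 in both pairs. The chemokine list had medians of -0.98 in 3D and -1.20 in 2D as labelled, and the NF-kB list -0.52 and -0.63. The largest falls of these lists in 3D did not follow: IL1A stood at 1.16 and CCL20 at 0.04 in 2D. Only 8 genes changed by 2-fold in the same direction in both pairs, all of them lower: CXCL8, CXCL6, CXCL2, ICAM1, SAA1, SGK1, TCIM and MAF, the last 3 named after their values were seen. CXCL8 stood at -1.42 in 3D and -1.89 in 2D, and SGK1, a kinase activated by PI3K signalling, at -1.23 and -1.72. This count depends on the labels of the 2D pair: with them turned, these 8 genes would have changed in opposite directions, and 180 falls and 26 rises would be shared.

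**Figure D4:**
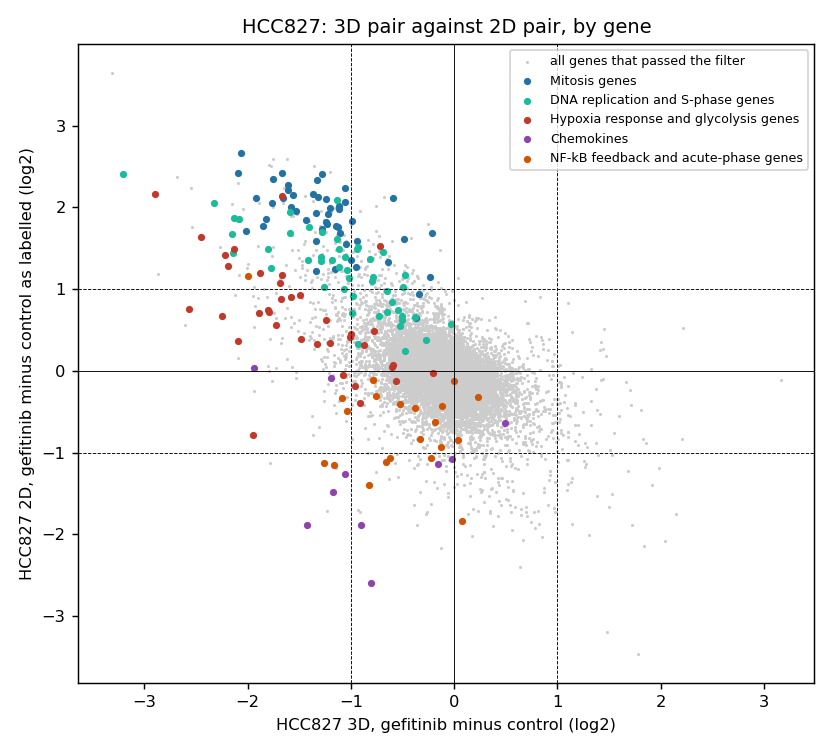
Gefitinib minus control (log2) in the HCC827 3D pair (x axis) against the HCC827 2D pair as labelled (y axis) for 11926 genes in grey, with the members of 5 lists coloured and dashed lines at 2-fold. Mitosis, replication and hypoxia genes lie at the upper left (medians of -1.24, -1.03 and -1.62 in 3D and 1.92, 1.26 and 0.64 in 2D), and chemokines at the lower left (-0.98 and -1.20).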

How the data were processed

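RNA (100 ng per sample) was amplified, biotin-labelled and hybridised to 8 oligonucleotide arrays. The authors deposited log2 signals of 49495 probe sets made by RMA, and the submitters' processing notes name R 3.2.1. The background, scaling and centring steps are not further given in the sources used here. The values lie on the log2 scale with no centring of genes, and array medians were 7.34 and 7.30 (A549 3D control and gefitinib), 7.32 and 7.27 (HCC827 3D), 7.32 and 7.32 (A549 2D), and 7.33 and 7.31 (HCC827 2D). No genome build is given in the sources used here.

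Control probe sets (102) and probe sets with several symbols (1333) or not listed in the annotation (2878, some of them controls) were left out. Of 45284 probe sets with 1 symbol, 45214 matched RefSeq (GRCh38.p14). The probe set with the highest mean over the 8 arrays stood for each of 18244 genes, and genes were kept if at least 2 of 8 arrays showed them above the median of that array, which left out 6318. Differences are gefitinib minus control, and 2-fold was the threshold. With 1 array per condition no p-value is given, and the number of arrays limits the precision. The calculation was tested on simulated data. Python 3.11.15 with pandas 2.3.3 was used, and R 4.3.3 with limma 3.58.1 for cyclic loess.

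Named genes were the 15 largest changes each way, up to 6 of the largest 2-fold changes of each of 47 lists (2 members where none passed), the 5 largest A549 3D changes each way, and EGFR, ERBB2, ERBB3, DUSP6, ETV5, SPRY4, CCND1, MYC, MKI67, PCNA, CDKN1B, BCL2L11, IRS2, CDH1, VIM and NKX2-1. Members, lists and rule were chosen with earlier results of these data known. Alternatives were the mean or the most variable probe set, a common median, cyclic loess, no filter or a filter on the HCC827 3D pair, subtraction of the A549 difference, a limit beyond the A549 range of each level decile and, added after the data were seen, selection on the 3D arrays alone.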

Additional observations from a re-analysis of the deposited data

Results flagged for a closer look

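The medians of 4 lists moved in opposite directions in the 2 HCC827 pairs, and this difference was not tested, since each pair is 1 array against 1. The ERK feedback list stood at -0.74 in 3D and 0.51 in 2D as labelled, the DNA replication list at -1.03 and 1.26, the mitosis list at -1.24 and 1.92, and the hypoxia and glycolysis list at -1.62 and 0.64.

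Probe sets that carry no gene symbol or several symbols were used in no comparison above. Of 2065 that passed the filter, 50 (2.42%) changed by 2-fold or more in the HCC827 3D pair, 10 upwards and 40 downwards. In the A549 3D pair 0 did. Among the genes analysed 0.797% rose and 3.14% fell, so changes were not more frequent in these probe sets.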

How the results depend on the processing

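With no replicates, no alternative could be set against replicate error, and values were compared with the A549 3D SD (0.17). No paired analysis was possible because each condition has 1 array. Rises and falls numbered 55 and 242 with the mean of all probe sets, and 158 and 249 after cyclic loess, against 95 and 375; of the original calls 51 and 237 remained in the first case and 94 and 249 in the second. Under the other 6 alternatives to the values or the filter, rises numbered 92 to 115 and falls 336 to 377. Similar totals did not mean the same genes: with the A549 difference subtracted, 71 of the 95 rises and 289 of the 375 falls remained. The rest of these 6 kept 89 to 95 and 328 to 375 of the original calls. Beyond the A549 range of their decile lay 89 and 356, a limit that most 2-fold genes met through the rule alone. Of 376 list medians under 8 alternatives 55 moved by more than that SD. Among the lists set as main results these were, with the mean of probe sets, -0.81 for replication, -1.05 for mitosis and -1.15 for hypoxia; after cyclic loess, -0.86 for replication, -1.32 for hypoxia, 0.28 for FOXO targets and -0.0897 for cholesterol synthesis; with the A549 difference subtracted, -0.91 for mitosis, -1.35 for hypoxia and -0.17 for FOXO targets; and with selection on the 3D arrays alone, -0.53 for ERK feedback and -1.04 for ERK-driven factors. Of 960 values of 160 named genes under 6 alternatives, 648 moved by less than the SD and 311 by more. A change of sign was counted only for genes past 2-fold, and 1 such value turned, TRIM22 at -0.026 with selection on the 3D arrays alone. Values nearer 0 could change sign without being counted as turned. Of the 375 falls 55 ended below the array median, where a small signal over background limits the difference that can be read.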

Other observations

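Further 2-fold changes lay outside the lists and were named after their values were seen. HMGA1 went from 12.61 to 10.51 and HMGA2 from 11.03 to 9.28, both DNA-bending proteins of growing cells, while HMGB2 fell by 1.60, LMNB1 (lamin B1) by 1.51 and the condensin subunit SMC2 by 1.37. In A549 these genes lay between -0.16 and 0.11. SPINK1, a trypsin inhibitor, fell by 1.81, the defensin DEFB4A by 1.83, the galectin LGALS1 by 1.95 and SPP1 (osteopontin) by 1.23. MAP2K1, the gene of the kinase MEK1, went from 10.67 to 9.51, and the factors ETS1 and SOX9 fell by 1.12 and 1.26.

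Among the rises, EDN1 (endothelin-1) went from 9.40 to 10.71, FSTL3, an activin-binding protein, from 9.47 to 11.15, and THBS1 (thrombospondin-1) from 9.21 to 10.35. CD24, an epithelial surface protein, went from 12.96 to 14.17, and FOLR1, the folate receptor, from 10.74 to 11.84. KRT4, a keratin of stratified mucosa, rose by 1.45, against falls of KRT8, KRT18 and KRT19 by 1.18, 1.10 and 1.04. In the A549 3D pair EDN1, FSTL3, CD24 and FOLR1 lay between -0.14 and -0.03, KRT4 at 0.05 and THBS1 at 0.36.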
